A study of Mus musculus with 4 samples.

Results

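The miR-199 and miR-214 names were followed in mouse C2C12 myotubes, with and without guanidineacetic acid (GAA). The members are the 6 mature miRNAs miR-199a-3p, miR-199a-5p, miR-199b-3p, miR-199b-5p, miR-214-3p and miR-214-5p, chosen by name and not by their values, out of 869 miRNAs detected in at least 1 sample. All 6 were detected in all 4 samples. The rows of miR-199a-3p and miR-199b-3p held identical values in every sample, so the 6 names gave 5 distinct levels.

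C2C12 is a mouse skeletal myoblast line, labelled with the strain background 129/Rej, whose cells fuse into myotubes when serum is lowered. All samples were kept in high-glucose medium with horse serum and taken on day 6 of differentiation. The negative control (NC, 2 samples, 0 mM) had no GAA and the treated group (GAA, 2 samples) had 20 mM GAA, the direct precursor of creatine. The labels do not say whether the samples of a group came from separate cultures, so the spread between them may be technical, and they name no batch or date.

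miRNAs are cut from a hairpin RNA whose 5p and 3p arms can each be loaded into Argonaute and pair with mRNAs, mainly through the seed, bases 2 to 8 of the mature strand. Dnm3os is a long non-coding RNA on the strand opposite to the dynamin gene Dnm3, and it is the host transcript of a miR-199a hairpin and of the miR-214 hairpin. It is known from mesenchymal tissues and the growing skeleton. In muscle cells miR-214 is known to be switched on by MyoD and myogenin and to repress Ezh2, a methyltransferase of the Polycomb complex. The targets known for miR-199a-3p include mTOR, a kinase that controls muscle growth, and those known for miR-199a-5p include components of Wnt signalling.

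The mature strands are shown because the seed separates the miR-199 arms from the miR-214 arms and because the 3p strands of miR-199a and miR-199b are the same molecule. The RefSeq table of GRCm38.p6 matched 5 of the 6 names, all but miR-199b-5p. Letters run 5′ to 3′ and capitals mark the seed.
miR-199a-3p and miR-199b-3p: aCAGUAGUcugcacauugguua
miR-199a-5p: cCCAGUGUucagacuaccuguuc
miR-214-3p: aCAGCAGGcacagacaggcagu
miR-214-5p: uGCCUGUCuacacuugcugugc

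The strands of miR-199a-3p and miR-199b-3p had 0 mismatches over 22 bases. miR-199a-3p and miR-214-3p start alike but differed at 14 of 22 bases, and 2 of these lay in the seed (U5C and U8G, counted from the 5′ end, with the base of miR-199a-3p first). Of the other mouse miRNAs in the table, only miR-761 shared a seed with a member, that of miR-214-3p, and it was not detected in the 4 samples.

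The hairpins are shown because they tell which of these strands can come from Dnm3os. The capitals mark the mature arms, the 5p arm first.
Mir199a-2: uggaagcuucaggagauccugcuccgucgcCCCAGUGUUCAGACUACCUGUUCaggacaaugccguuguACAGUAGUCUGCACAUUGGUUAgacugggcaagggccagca
Mir214: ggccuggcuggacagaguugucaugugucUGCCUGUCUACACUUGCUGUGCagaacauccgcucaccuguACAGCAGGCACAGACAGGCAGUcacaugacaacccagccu
Mir199a-1: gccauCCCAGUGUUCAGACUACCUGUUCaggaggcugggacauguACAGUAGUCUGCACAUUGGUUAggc

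Mir199a-2 (chr1:162217814-162217923, plus strand, GRCm38) and Mir214 (chr1:162223368-162223477, plus strand) lie 5444 bp apart. In the GENCODE annotation both fall in an exon of Dnm3os (chr1:162217623-162225550, 7928 bp) in 2 of its 6 transcripts, and both lie opposite an intron of Dnm3 on the minus strand. Mir199a-1 (chr9:21496495-21496564, minus strand) lies opposite an intron of Dnm2, and Mir199b (chr2:32318460-32318569, plus strand) opposite an intron of Dnm1. The name of a Dnm3os cluster therefore covers Mir199a-2 and Mir214 alone, 2 of the 4 hairpins. Mir199a-1 and Mir199a-2 carry the same mature arms, as their capitals show, so reads of miR-199a cannot be assigned to the Dnm3os copy, whereas miR-214 has 1 hairpin.

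**Figure D1:**
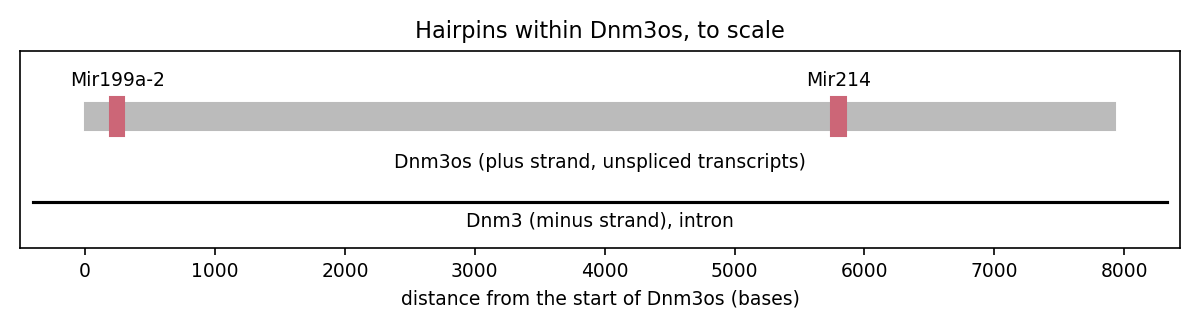
Map to scale of the 2 hairpins within Dnm3os, with the distance from the start of Dnm3os in bases on the horizontal axis. The grey bar is the 7928 bp extent of Dnm3os, the red boxes are Mir199a-2 near its start and Mir214 5444 bp further on, and the black line is the intron of Dnm3 on the other strand.

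The deposited level is a log2 value of reads per 1000000 mappable reads (RPM), and 1 read was worth 0.177 to 0.211 RPM. The samples held 4732359 to 5657704 mappable reads. The miRNA reads came to 1653803 and 2065461 in NC-1 and NC-2, against 3134241 and 2850828 in GAA-1 and GAA-2. They are sums over all rows, including 11 rows that repeat the sequence or the values of another row. miRNA reads thus made up 33.6% and 43.6% of mappable reads without GAA and 56.3% and 50.4% with GAA, with no overlap. Pairs of values below are in the order of sample 1 and sample 2 of a group. The members are therefore given on 2 scales, as RPM and as a percentage of miRNA reads, and the part of the unequal miRNA content in each change was not tested. All 7 listed muscle miRNAs (miR-1a-3p, miR-133a-3p, miR-133b-3p, miR-206-3p, miR-208b-3p, miR-486a-5p and miR-499-5p) were detected, with a summed level of 10480 and 13715 RPM without GAA and 11218 and 10533 RPM with GAA. The 13 listed markers of liver, neurons, blood, endothelium and epithelium (miR-122-5p, miR-124-3p, miR-9-5p, miR-142a-5p, miR-142a-3p, miR-223-3p, miR-451a, miR-126a-3p, miR-200a-3p, miR-200b-3p, miR-200c-3p, miR-141-3p and miR-429-3p) summed to 40.6 and 53.5 RPM without GAA and 88.9 and 60.3 RPM with GAA. Of the 13, 4 had both GAA samples above both NC samples in RPM and 3 had both below. Among the 323 miRNAs with no fewer than 10 reads per sample, 64.4% were above and 2.79% below. Only 2 of the 13 reached 10 reads in every sample, so most lie outside that set and their counts cannot be judged against it. miR-9-5p held most of the sum, with 27.8 and 41.2 RPM without GAA, against 59.5 and 43.0 RPM with GAA. The liver marker miR-122-5p was at 0 RPM in both NC samples and at 3.05 and 0.354 RPM with GAA, whereas the epithelial marker miR-141-3p was at 1.02 and 1.06 RPM without GAA, against 0.719 and 0.530 RPM with GAA. The myeloid marker miR-223-3p and the epithelial marker miR-429-3p were at 0 RPM in all samples but GAA-1, where they were at 0.180 and 1.08 RPM. The part of these markers in the members' values was not tested.

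The 5 distinct levels spanned a wide range. The shared 3p strand of miR-199 ranked 16th of 869 by mean RPM, at 4732 RPM. miR-199a-5p followed at rank 39 with 1660 RPM, miR-214-3p at rank 74 with 463 RPM, miR-214-5p at rank 128 with 104 RPM, and miR-199b-5p at rank 205 with 23.2 RPM. Relative to the 3p strand of miR-199, these levels were lower by a factor of 2.85, 10.2, 45.3 and 204. In every sample the order was the same, and no neighbours in it overlapped in any pair of samples. The reads of miR-199a-3p were whole in all samples but GAA-1, where multiplication by 3 made them whole, and 3 hairpins encode this strand. Those of miR-199a-5p were whole in NC-2 and GAA-2. In NC-1 and GAA-1 multiplication by 2 made them whole, and 2 hairpins encode this strand. The listed values of these strands can thus be fractions of reads, and the factors between members depend on how reads shared by hairpins were reported, which is not given in the sources used here. A change between samples of 1 member does not depend on it.

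The 3p strand of miR-199, which dominated the members, stood at 4595 and 4523 RPM without GAA and at 4956 and 4854 RPM with GAA. The GAA samples lay above the NC samples without overlap, by a narrow margin. The means were 4559 ± 50.5 (SD, n = 2) and 4905 ± 71.8 RPM (SD, n = 2), a difference of 7.59%. As a percentage of miRNA reads the order turned: the strand made up 1.37% (95% Wilson interval 1.35% to 1.39%) and 1.04% (1.02% to 1.05%) of miRNA reads without GAA, against 0.880% (0.870% to 0.891%) and 0.963% (0.952% to 0.975%) with GAA. The GAA samples were both under the NC samples on this scale, and the mean was 1.202 ± 0.235% (SD, n = 2) against 0.922 ± 0.0588% (SD, n = 2). The spread between NC-1 and NC-2 was wider than the gap from NC-2 to GAA-2. These intervals treat reads as independent and do not cover the spread between samples. Reads amplified by PCR without molecular identifiers are not independent molecules, so the intervals can be too narrow even for counting error.

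miR-199a-5p, the other arm of the miR-199a hairpins, was at 1457 and 1664 RPM without GAA and at 2085 and 1437 RPM with GAA. GAA-1 was the highest of the 4 samples and GAA-2 the lowest, so the groups overlapped. The means were 1560 ± 147 and 1761 ± 458 RPM (SD, n = 2 each). Its share of miRNA reads was 0.434% (0.424% to 0.444%) and 0.381% (0.373% to 0.390%) without GAA and 0.370% (0.364% to 0.377%) and 0.285% (0.279% to 0.291%) with GAA. On this scale both GAA samples were lower, with NC-2 and GAA-1 close to each other.

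miR-199b-5p, whose 5p arm comes from the hairpin opposite Dnm1, was the weakest member, with 100 and 94 reads without GAA and 177 and 117 reads with GAA. These reads corresponded to 20.3 and 19.9 RPM and to 31.8 and 20.7 RPM. GAA-1 stood apart from the other samples, while GAA-2 differed little from the NC samples. As a percentage of miRNA reads it was 0.00605% (0.00497% to 0.00735%) and 0.00455% (0.00372% to 0.00557%) without GAA, against 0.00565% (0.00487% to 0.00654%) and 0.00410% (0.00342% to 0.00492%) with GAA, so that the groups overlapped.

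miR-214-3p was at 386 and 382 RPM without GAA and at 558 and 526 RPM with GAA. The NC samples were nearly equal and both GAA samples were higher, with means of 384 ± 2.51 and 542 ± 23.0 RPM (SD, n = 2 each), a difference of 41.2%. The share of miRNA reads was 0.115% (0.110% to 0.120%) and 0.0875% (0.0836% to 0.0917%) without GAA and 0.0991% (0.0957% to 0.103%) and 0.104% (0.101% to 0.108%) with GAA. Here the GAA samples lay between the NC samples, and the mean shares were 0.101 ± 0.0193% and 0.102 ± 0.00367% (SD, n = 2 each).

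miR-214-5p, the other arm of the same hairpin, was at 90.4 and 78.2 RPM without GAA and at 134 and 116 RPM with GAA. As for its 3p arm, both GAA samples were higher, by 48.0% of the NC mean (84.3 ± 8.61 against 125 ± 12.9 RPM, SD, n = 2 each). Its share of miRNA reads was 0.0269% (0.0245% to 0.0295%) and 0.0179% (0.0162% to 0.0198%) without GAA, against 0.0238% (0.0221% to 0.0255%) and 0.0229% (0.0212% to 0.0248%) with GAA. The GAA samples again lay between the NC samples.

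**Figure D2:**
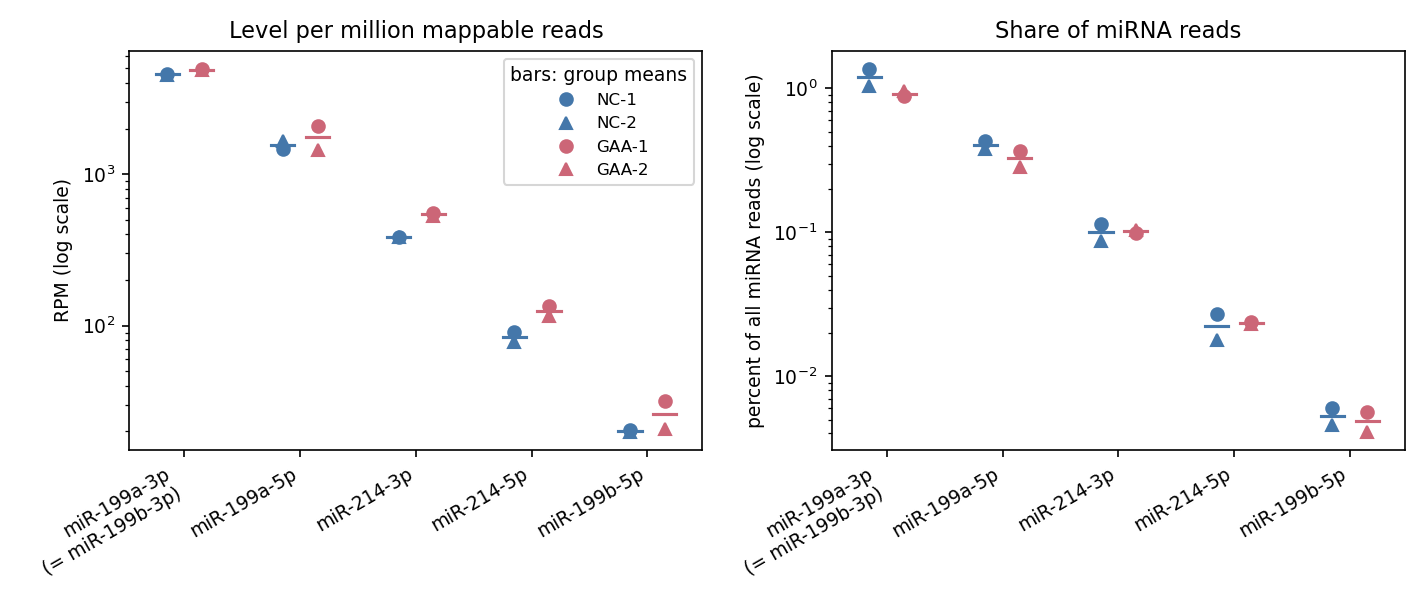
Level of each member in the 4 samples, as RPM (left) and as a percentage of all miRNA reads (right), both on log axes. Blue marks NC and red marks GAA, circles are sample 1, triangles are sample 2 and horizontal bars are the group means of 2 samples. On the left the red points of miR-214-3p and miR-214-5p stand above the blue ones, and on the right they lie between them, while the red points of miR-199a-3p and miR-199a-5p lie below the blue ones.

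NC and GAA were compared for each member with limma over all 869 detected miRNAs, and a miRNA was called at a Benjamini-Hochberg adjusted p under 0.01 with an absolute log2 fold change above 1. In RPM 0 of the 6 members were called, beside 0% of all miRNAs. At an unadjusted p under 0.05 stood 152 miRNAs, 136 of them higher in GAA, and these included 2 members, both arms of miR-214. The log2 fold change was 0.50 for miR-214-3p (SE 0.15, limma, Benjamini-Hochberg adjusted p = 0.252) and 0.56 for miR-214-5p (SE 0.18, limma, Benjamini-Hochberg adjusted p = 0.272). It was 0.11 for miR-199a-3p (SE 0.16, limma, Benjamini-Hochberg adjusted p = 0.679). For miR-199a-5p it was 0.15 (SE 0.25, limma, Benjamini-Hochberg adjusted p = 0.704), and without GAA-1 it was -0.12. For miR-199b-5p it was 0.34 (SE 0.26, limma, Benjamini-Hochberg adjusted p = 0.524), and without GAA-1 it was 0.04. These fold changes are on the log2(RPM + 1) scale.

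The values of the members are read against those of all well-measured miRNAs, the 323 with no fewer than 10 reads per sample, whose median log2 fold change in RPM was 0.49. Both arms of miR-214 stood near that median, with 165 of the 323 miRNAs below miR-214-3p and 198 below miR-214-5p. The miR-199 strands stood in the lower part, with 46 of 323 below miR-199a-3p, 55 below miR-199a-5p and 101 below miR-199b-5p. In RPM, 5 of the 6 rows had both GAA samples above both NC samples, all but miR-199a-5p, where 64.4% of the 323 miRNAs did so, and 0 of the 6 had both below, where 2.79% did.

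As a percentage of miRNA reads 0 of the 6 members were called, beside 0.115% of the 869 miRNAs, that is 1 miRNA, the muscle miRNA miR-208b-3p, which was lower in GAA and was no longer called when any 1 of the 4 samples was left out. On this scale 70 miRNAs had an unadjusted p under 0.05, 0 of them members, and the median log2 fold change of the 323 miRNAs was 0.02. The log2 fold change was -0.37 for miR-199a-3p (SE 0.22, limma, Benjamini-Hochberg adjusted p = 0.774) and -0.32 for miR-199a-5p (SE 0.21, limma, Benjamini-Hochberg adjusted p = 0.777). It was -0.12 for miR-199b-5p (SE 0.27, limma, Benjamini-Hochberg adjusted p = 0.896), 0.02 for miR-214-3p (SE 0.20, limma, Benjamini-Hochberg adjusted p = 0.960) and 0.09 for miR-214-5p (SE 0.23, limma, Benjamini-Hochberg adjusted p = 0.905). The GAA samples were both under the NC samples for 3 of the 6 rows (miR-199a-3p, its equal row miR-199b-3p, and miR-199a-5p), against 19.8% of the 323 miRNAs, and above them for 0 of the 6, against 22.9%. The shared rows count 1 strand 2 times. The places among the 323 miRNAs were much as in RPM, with 42 below miR-199a-3p, 52 below miR-199a-5p, 102 below miR-199b-5p, 158 below miR-214-3p and 192 below miR-214-5p.

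**Figure D3:**
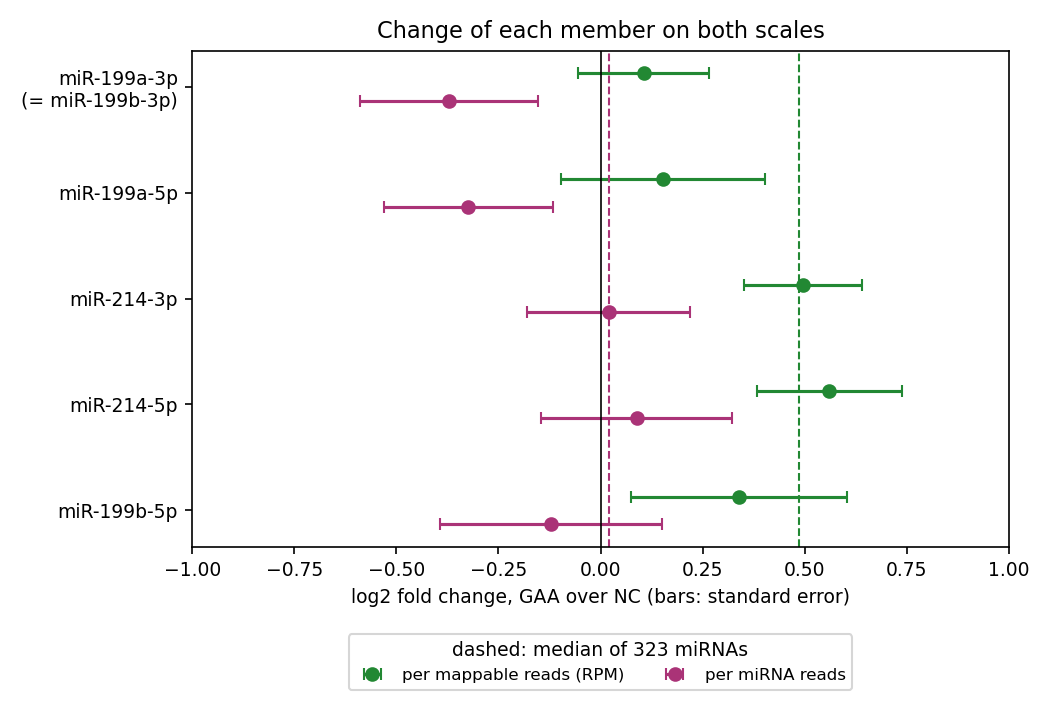
Log2 fold change of each member, GAA over NC, from limma on RPM (green) and on the share of miRNA reads (purple), with bars of 1 standard error. Dashed lines are the medians of the 323 miRNAs with no fewer than 10 reads per sample, 0.49 in RPM and 0.02 as a share. The miR-214 arms lie at the dashed line on both scales and miR-199a-3p and miR-199a-5p to its left.

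The members summed, with the shared strand counted 1 time, reached 6548 and 6667 RPM without GAA and 7764 and 6953 RPM with GAA. Both GAA samples were higher, by 11.4% in the mean (exact permutation test, two-sided, p = 0.333, the smallest p that 2 against 2 samples allow). The log2 ratio of the means was 0.16, and 0.07 without GAA-1. As a percentage of miRNA reads the sum was 1.95% and 1.53% without GAA and 1.379% and 1.380% with GAA, lower in GAA (exact permutation test, two-sided, p = 0.333). The divisor held both rows of the shared strand. Here the log2 ratio of the means was -0.33, and -0.15 without NC-1. Within the sum, the 3p strand of miR-199 took 63.8% to 70.2% and miR-199a-5p 20.7% to 26.8%, both with overlapping groups. The share of miR-214-3p was 5.89% and 5.73% without GAA and 7.19% and 7.56% with GAA. That of miR-214-5p was 1.38% and 1.17% without GAA and 1.72% and 1.66% with GAA, so that both arms of miR-214 took a larger part of the sum in GAA. How many other miRNAs rose relative to this sum was not counted.

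Ratios between members within a sample do not depend on the divisor of the sample, and they were added after seeing the data. For each 100 reads listed for miR-199a-3p there were 8.39 and 8.45 reads of miR-214-3p without GAA and 11.3 and 10.8 reads with GAA. The NC samples were nearly equal and the GAA samples higher, with means of 8.42 ± 0.0382 and 11.05 ± 0.307 (SD, n = 2 each) and a log2 ratio of the means of 0.39 (exact permutation test, two-sided, p = 0.333). For miR-214-5p the numbers were 1.97 and 1.73 reads without GAA and 2.70 and 2.38 reads with GAA, again without overlap. How many of all miRNAs had this order relative to miR-199a-3p was not counted. The median log2 fold change of the 323 well-measured miRNAs relative to miR-199a-3p was 0.39, so a rise on this scale was not particular to miR-214. The miR-199 arms behaved differently from one sample to the next: for each 100 reads of miR-199a-3p there were 31.7 and 36.8 reads of miR-199a-5p without GAA and 42.1 and 29.6 reads with GAA. For miR-199b-5p these ratios were 0.442 and 0.439 without GAA and 0.642 and 0.426 with GAA. For both, GAA-1 was the highest sample and GAA-2 the lowest.

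**Figure D4:**
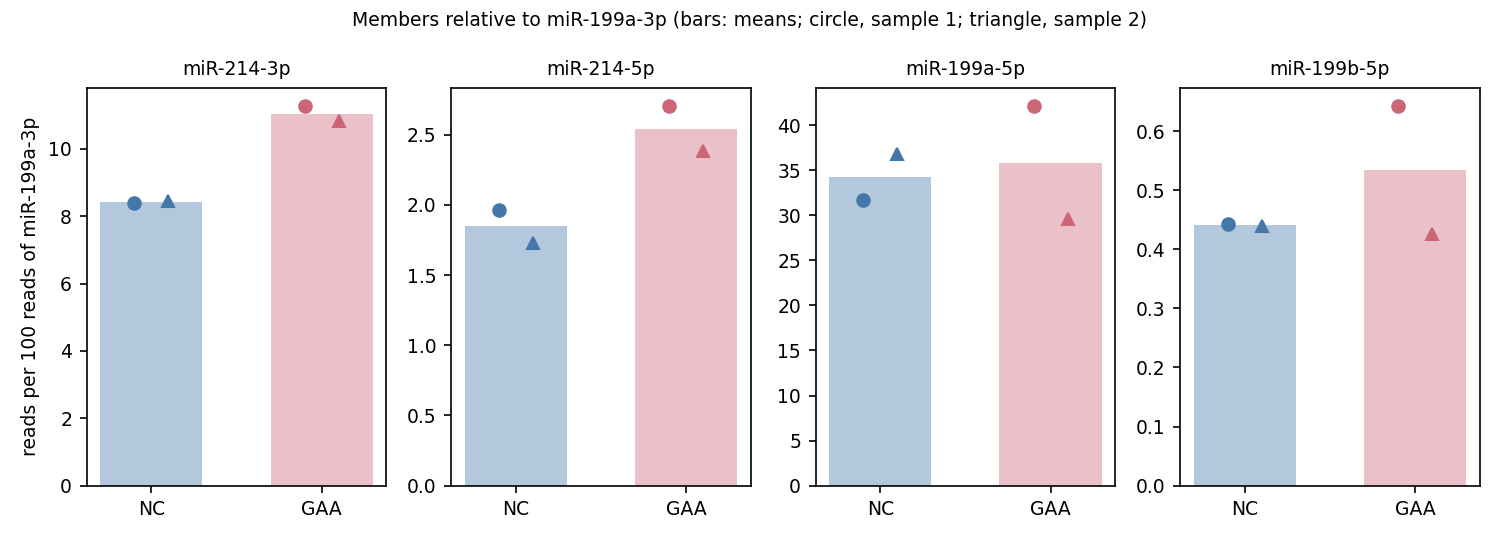
Reads of miR-214-3p, miR-214-5p, miR-199a-5p and miR-199b-5p for each 100 reads of miR-199a-3p in the same sample, on vertical axes that start at 0. Bars are the group means of 2 samples, circles are sample 1 and triangles sample 2. Both GAA points lie above both NC points for the miR-214 arms, whereas the GAA points lie on either side of the NC points for the 5p arms of miR-199. The share of all miRNAs with either order on this scale was not counted.

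When all 869 miRNAs were divided by the reads of miR-199a-3p of their sample and fitted with limma, 0% were called. An unadjusted p under 0.05 was reached by 146, of which 126 were higher in GAA. The log2 fold change relative to miR-199a-3p was 0.39 for miR-214-3p (SE 0.11, limma, Benjamini-Hochberg adjusted p = 0.280) and 0.46 for miR-214-5p (SE 0.15, limma, Benjamini-Hochberg adjusted p = 0.291). The median of the 323 well-measured miRNAs on this scale was also 0.39. Relative to miR-199a-3p, miR-214-3p was thus at the value of the median miRNA and miR-214-5p slightly above it. It was 0.05 for miR-199a-5p (SE 0.24, limma, Benjamini-Hochberg adjusted p = 0.921) and 0.24 for miR-199b-5p (SE 0.25, limma, Benjamini-Hochberg adjusted p = 0.582).

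Relative to miR-199a-5p, the other strand of the miR-199a hairpins, there were 26.5 and 23.0 reads of miR-214-3p for each 100 reads without GAA and 26.8 and 36.6 reads with GAA. NC-1 and GAA-1 were nearly equal, and without GAA-2 the log2 ratio of the means was 0.12 in place of 0.36. The same ratio for miR-214-5p was 6.20 and 4.70 without GAA and 6.42 and 8.05 with GAA. Between the 5p arms of miR-199, there were 1.39 and 1.19 reads of miR-199b-5p for each 100 reads of miR-199a-5p without GAA and 1.53 and 1.44 reads with GAA.

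In all 3 names the 3p row exceeded the 5p row. The 3p rows of miR-199a and miR-199b are equal, so neither gives the 3p level of its own name alone. Only for miR-214 do the rows compare the arms of 1 hairpin. The log2 ratio of the 5p to the 3p arm was -1.66 and -1.44 without GAA and -1.25 and -1.76 with GAA for miR-199a, with the GAA samples on either side of the NC samples. For miR-214 it was -2.09 and -2.29 without GAA and -2.06 and -2.18 with GAA. For miR-199b it was -7.81 and -7.82 without GAA and -7.28 and -7.86 with GAA, where the 3p row also holds the reads of the identical miR-199a-3p. Of 85 names with both arms at 10 or more reads in every sample, 0% had a called change in this ratio with limma, and 7 had an unadjusted p under 0.05. The change from NC to GAA was 0.05 for miR-199a (SE 0.35), 0.07 for miR-214 (SE 0.32) and 0.24 for miR-199b (SE 0.30), each with a limma, Benjamini-Hochberg adjusted p of 0.991. The median absolute change over the 85 names was 0.24. The small mean change of miR-199a came from GAA samples on opposite sides of the NC samples, and it was -0.21 without GAA-1 and 0.30 without GAA-2.

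Of 8 other miRNAs known to be abundant in mesenchymal cells (miR-143-3p, miR-143-5p, miR-145a-5p, miR-145a-3p, miR-21a-5p, miR-100-5p, miR-125b-5p and miR-152-3p), all were detected, 0 were called on either scale, and 6 had both GAA samples above both NC samples in RPM, where 64.4% of the 323 miRNAs did so. Their median log2 fold change was 0.41 in RPM and -0.06 as a share of miRNA reads. The 7 muscle miRNAs were a list chosen with earlier results of these data known. Of these 7, 0 had both GAA samples above both NC samples in RPM, where 64.4% of the 323 miRNAs did so. In RPM 5 had both below (2.79%), and as a share 7 had both below (19.8%). Only 6 of the 7 belong to the 323 miRNAs. miR-208b-3p does not, although it is counted among the 5 and the 7. Its order therefore cannot be judged against these percentages. As a share of miRNA reads the muscle miRNAs summed to 3.12% and 3.14% without GAA, against 1.99% and 2.09% with GAA. As shares of miRNA reads, the muscle sum, miR-199a-3p and miR-199a-5p were thus all lower with GAA. In RPM the GAA samples lay between the NC samples for the muscle sum. On that scale miR-199a-3p was higher with GAA and the groups overlapped for miR-199a-5p. The part of the muscle miRNAs in the members' values was not tested. In bulk RNA, fewer cells of a type and less RNA per cell cannot be told apart.

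The miRNAs whose levels over the 4 samples were most like those of the summed members were sought among 317 non-members with no fewer than 10 reads per sample. Likeness was the Euclidean distance of log2(RPM + 1) after subtraction of each mean. The closest was miR-188-5p at a distance of 0.1004, with 88.3 and 96.8 RPM without GAA and 114 and 102 RPM with GAA. Next came miR-101b-3p at 0.146 and miR-322-3p at 0.162, against a median distance of 0.554. With 4 samples such distances rest on few values, and they are given as a description.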

How the data were processed

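Small RNA of 4 C2C12 samples was sequenced on an Illumina HiSeq instrument. The authors removed adaptors and low-quality reads, mapped what was left to GRCm38, used miRDeep2 and miRBase to count known miRNAs, and divided the counts by the mappable reads. The deposited values are log2(RPM + 1), and a miRNA missing from a file was set to 0. That base 2 and 1 were used followed from the values themselves, whose RPM rose in equal steps of 1 read. With this step 95.62% of values gave whole reads within 0.05, and 49 miRNAs had reads that were not whole in at least 1 sample. The recovered reads gave depth, shares and filters.

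Groups came from the sample titles. GAA was tested against NC with limma 3.58.1 in R 4.3.3 (mean-variance trend, condition as the only term) on log2(RPM + 1), on log2 of reads per 1000000 miRNA reads plus 1, and on the log2 ratio of the arms, with Benjamini-Hochberg adjustment over all miRNAs or names tested. The files hold log2 values, and no count model was run on the reads recovered from them. Whether such a model would call members or other miRNAs was not tested. The fit on log2(RPM + 1) was tested on simulated data whose changes were larger and whose noise was smaller than those of the members. That test therefore does not tell whether changes as small as theirs would be found. The fits of shares and arm ratios were not tested in this way. The smallest number of reads taken as detectable was 3, worth 0.530 to 0.634 RPM, and every member was above it. Sequences are from RefSeq and positions from RefSeq and GENCODE M21, counted from 1. The text names the 6 members, fixed lists of muscle miRNAs, markers of other cells and mesenchymal miRNAs, and the 3 non-members nearest to the summed members. Members and lists were chosen with earlier results of these data known. Alternatives were other divisors and filters, a pseudocount of 0.1, other thresholds, equal rows counted 1 time, the replicate number as a block and each sample left out. Figures were drawn with matplotlib 3.10.9.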

Additional observations from a re-analysis of the deposited data

How the results depend on the processing

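The direction of several members depended on the divisor. Division by all miRNA reads, which called 1 miRNA in place of 0 in RPM, is the fit of shares reported above, not a separate check. It turned the log2 fold change of miR-199a-3p and miR-199b-3p to -0.37, of miR-199a-5p to -0.32 and of miR-199b-5p to -0.12. Median-of-ratios factors turned them to -0.41, -0.37 and -0.16, turned miR-214-3p to -0.0229 and the summed members to -0.37, and also called 1 miRNA. miR-214-5p kept its direction in RPM under every alternative run, but not its size. Its log2 fold change of 0.56 fell to 0.04 with median-of-ratios factors and to 0.09 with division by all miRNA reads. Leaving out 1 sample moved miR-199a-5p in RPM between -0.12 (without GAA-1) and 0.42. In shares of miRNA reads the same step moved miR-199b-5p between -0.35 and 0.10, miR-214-3p between -0.18 and 0.22 and miR-214-5p between -0.20 and 0.38, with the lowest values of the miR-214 arms obtained without NC-2, while miR-199a-3p (-0.57 to -0.17) and miR-199a-5p (-0.51 to -0.14) kept their direction. The number of called shares, 1 in the comparison reported, was 0 with a pseudocount of 0.1, 1 with at least 1 RPM in every sample and 6 with a replicate block. It was 0 with at least 10 reads in every sample, a filter that removes the called miR-208b-3p before the test. This 0 therefore does not tell whether the call would hold. In GAA-2 miR-208b-3p was at 1.41 RPM, where 1 read was worth 0.177 RPM, so the call rests on few reads. For the arm ratios, leaving out a sample gave 0 to 1 called names (1 without NC-1) and changes of -0.21 to 0.30 for miR-199a, -0.0301 to 0.16 for miR-214 and -0.0509 to 0.54 for miR-199b. With a sample left out, the log2 change from NC to GAA of the ratio of miR-199a-5p to miR-199a-3p ranged from -0.21 to 0.30. The log2 change of the summed members ranged from 0.07 (without GAA-1) to 0.23 in RPM and from -0.50 (without NC-2) to -0.15 (without NC-1) as a share. The cause of these changes was not tested.

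The groups share replicate numbers that the labels do not explain, and samples with the same number had a correlation of deviations of -0.15 over 323 miRNAs. With the replicate block 0 miRNAs were called in RPM (limma, Benjamini-Hochberg adjusted p = 0.577 for miR-214-3p). Crossed numbers, added after seeing the data, gave 0 called miRNAs in RPM and 6 in shares. Depth was no limit for the abundant members, but miR-199b-5p rested on 94 to 177 reads.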
